A study of Mus musculus with 5 samples.

Results

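Neurotransmitter receptors sit in the surface of nerve cells and turn the transmitter released by a neighbouring cell into an electrical or chemical response. Ligand-gated receptors are channels assembled from several subunits, so the set of subunit genes in use decides what a channel responds to and which ions it passes, whereas G protein-coupled receptors act more slowly through enzymes and other channels. Motor neurons of the spinal cord are excited mainly through glutamate receptors, are inhibited through glycine and GABA-A receptors, and release acetylcholine, which acts on nicotinic receptors of muscle and of other neurons. The genes described here were chosen by symbol: those for AMPA, NMDA, kainate, delta and metabotropic glutamate receptors, GABA-A and GABA-B receptors, glycine receptors, nicotinic and muscarinic acetylcholine receptors, and serotonin receptors. The choice gave 88 of the 19897 genes that could be named on the array, and Grid2ip, which encodes a protein that binds a delta receptor and is not a receptor itself, came in through its symbol, so that 87 of them encode receptor subunits or receptors.

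Gene expression was measured in wild-type male mouse cells on 5 Agilent single-colour arrays, with 1 array for each of 5 stages of motor neuron differentiation and no replicates. ES are undifferentiated embryonic stem cells. Day2 are embryoid bodies, which are floating aggregates of differentiating cells, after 8 h of retinoic acid (RA), Day3 and Day4 are embryoid bodies after 1 day and 2 days of RA, and Day7, with 5 days of RA, is labelled as motor neurons in its source, though its tissue label still reads embryoid bodies. RA gives neural cells a spinal character, and the labels name Shh beside it, applied over days 2 to 5, where the study's methods name the agonist SAG. The cultures were not sorted, the labels do not name the stem cell line, and each sample holds a mixture of cells, so that in every comparison fewer cells of a type and less RNA per cell cannot be told apart. Values are quantile-normalized log2 signals of 1 probe per gene, the brightest on average, and because probes differ in brightness the level of a gene is set only against its own level on other arrays. A probe that the scanner software did not mark as well above background on an array has only a bound there, namely its own signal or the dimmest signal among probes so marked, whichever is greater, and a fold that uses this bound carries the words at least. Where neither array had the probe well above background, or its brighter side did not pass that bound, no fold is given. A change of at least 2-fold was taken as a fixed rule of size, and no test was possible with 1 array for each stage. How many arrays there were limits the precision of each value. Repeated spots of a probe had a median SD of the log2 signal between 0.06 on Day7 and 0.11 on Day2, which covers error within an array only.

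The Day2 array stood apart from the rest. Of all mouse probes, 86.7% were well above background on it, against 59.2%, 57.5%, 65.7% and 62.4% on ES, Day3, Day4 and Day7. The same held for 1155 probes of olfactory receptor genes, which serve the nose and are not known for a role in these cells: 70.0% were well above background on Day2, and between 8.75% and 14.1% on the other arrays. The dimmest log2 signal among probes so marked was 2.6 on Day2, and 4.18, 5.22, 4.05 and 4.66 on ES, Day3, Day4 and Day7. Any result that rests on Day2 is to be read with these shares and levels. Day7 was the only array on its slide, so that for Day7 the slide and the stage cannot be told apart.

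Marker genes were set against the labels. Of 5 stem cell genes, 4 were lowered at least 2-fold from ES to Day7, among them Pou5f1 from 12.39 to 8.22. Nanog was the exception, with a change of -0.40. All 6 motor neuron genes were raised, with a median log2 change of 5.98, and 5 of 6 general neuronal genes, with a median of 4.48. Chat, the enzyme that makes acetylcholine, was dim in ES cells, where it was not well above background, and stood at 12.21 on Day7, and Isl1, a transcription factor of motor neurons, went from 7.18 to 13.25. Genes of other neurons were present as well on Day7. Of the GABA and glycine neuron genes with a named probe, Gad1 and Gad2, which make GABA, rose from ES by at least 5.41-fold for Gad1 and at least 12.9-fold for Gad2, and of the glutamate neuron genes Slc17a6, which loads glutamate into vesicles, rose 39.4-fold, while Slc17a7, another such transporter, was at 5.29 in ES cells and not well above background on Day7. Slc32a1, which loads GABA and glycine into vesicles, changed by 0.44. Of 4 astrocyte genes 1 was raised and 1 lowered from ES to Day7, of 4 oligodendrocyte genes 2 and 2, and of 3 genes of microglia and blood 0 and 0. The part of such neurons in the receptor values of Day7 was not tested.

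Fewer of the receptor genes were well above background than of all genes on every array, and the distance was smallest on Day2 and Day7. In ES cells 39 of 88 members (44.3%) were well above background, against 73.1% of all named genes. On Day2 it was 75 (85.2%) against 91.7%, on Day3 42 (47.7%) against 72.7%, on Day4 47 (53.4%) against 77.6% and on Day7 59 (67.0%) against 76.2%. Thus 24 members (27.3%, against 67.7% of all genes) had a signal well above background on all 5 arrays, and 5 (5.68% against 6.32%) on none of them, namely Chrnb3, Chrne, Gabra6, Gabrq and Htr1b. On Day7 and not in ES cells there were 28 members (31.8% against 6.55%), and in ES cells and not on Day7 there were 8 (9.09% against 3.42%). Another 12 (13.6%, where 2188 of the 19897 genes did the same) were well above background on Day2 alone, namely Chrm5, Chrna1, Chrna10, Gabre, Glra3, Glra4, Grin3a, Htr1f, Htr3b, Htr4, Htr5a and Htr6. For 6 members (6.82% against 0.759%) the Day7 array alone gave such a signal, among them Gria1, Gria2, Grid1, Grm7 and Chrm2.

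The receptor genes were raised mainly between Day4 and Day7. From Day4 to Day7, 38 of 88 members (43.2%) were raised at least 2-fold and 7 (7.95%) were lowered, where among all named genes 14.6% were raised and 14.7% lowered. From ES to Day7, 37 members (42.0%) were raised and 12 (13.6%) lowered, against 19.7% and 19.4% of all genes. Of these, 24 of the raised and 6 of the lowered changes are bounds, because the probe was not well above background on the dimmer array. Over the 67 members with a value the median log2 change from ES to Day7 was 1.16, against -0.07 over all genes with a value. A member that passed only because it was bright on Day7 had to be raised, so that the medians over all 88 members stand beside it: 0.20 with members dim on both arrays set to 0, and 0.67 with every probe at its own value, against 0.00 and -0.02 for all genes. From ES to Day4 the members did not lean either way: 16 (18.2%) were raised and 15 (17.0%) lowered, where all genes gave 13.5% and 11.5%. From ES to Day2, the array that stood apart, 22 members (25.0%) were raised and 14 (15.9%) lowered, against 9.88% and 10.4% of all genes. Of the 22, 16 are bounds, because the probe was not well above background on the ES array.

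**Figure D1:**
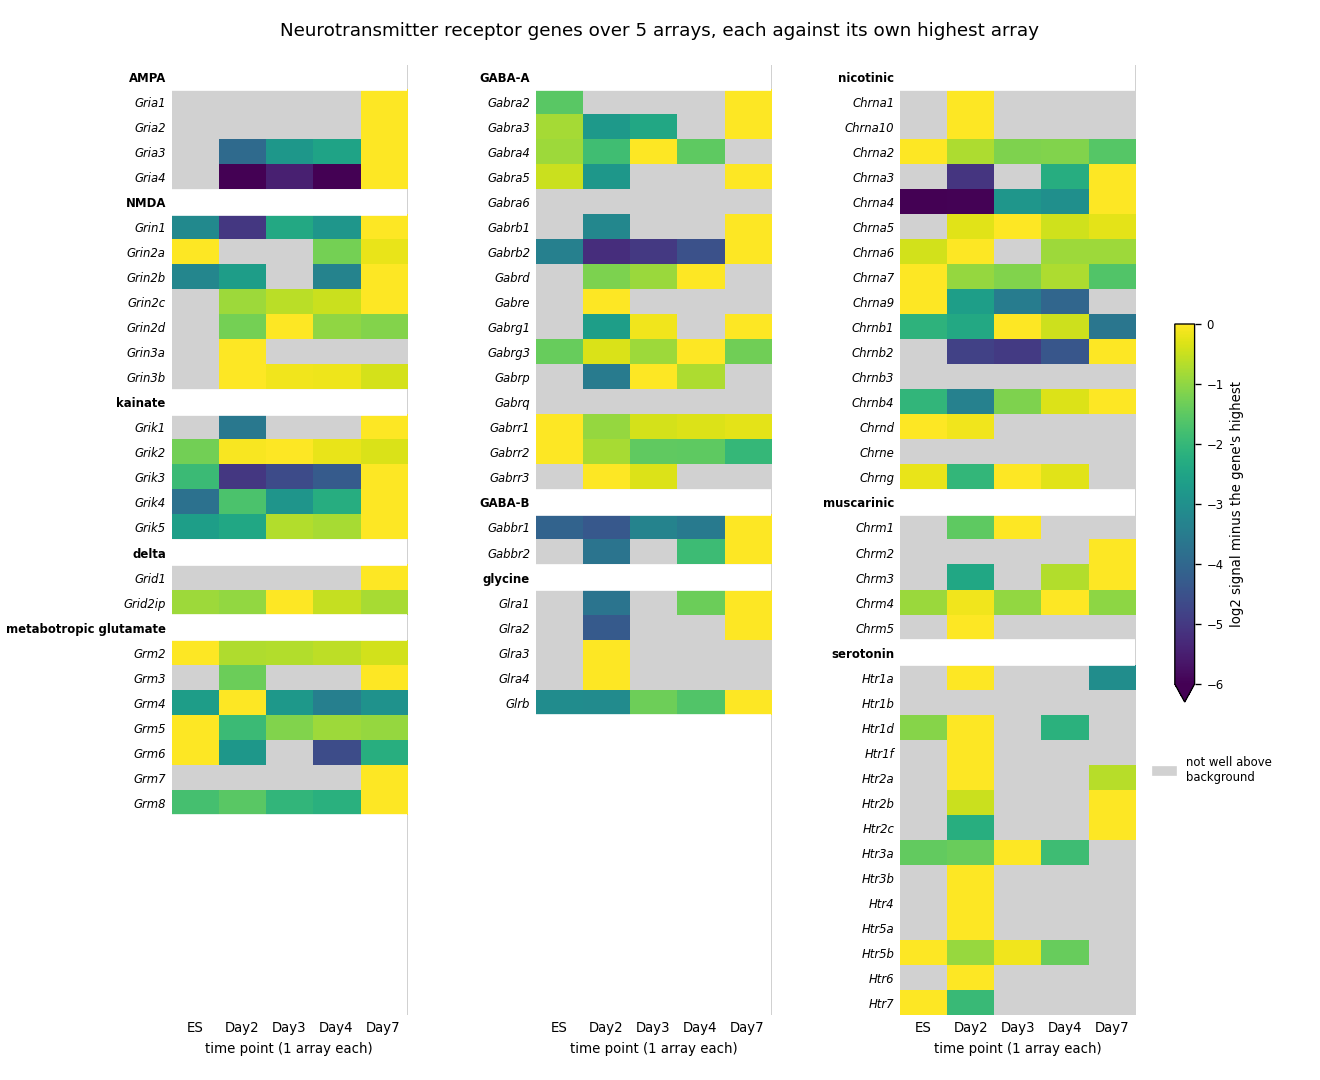
Heat map of 83 of the 88 members by family (rows) on the 5 arrays (columns, 1 array each). Colour is the log2 signal minus the highest value that the same gene had on an array where it was well above background, from 0 in yellow to dark for lower values, and grey marks an array where the probe was not well above background. Many rows of the glutamate, GABA and glycine families have their highest value on Day7, and 12 rows are coloured on Day2 alone.

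From ES to Day7 and from Day4 to Day7 more members were raised than lowered under each scaling tried, but the counts differed. When each array was shifted to its 75th percentile in place of quantile normalization, the median change of all genes moved to -0.58 from ES to Day7, -0.26 from ES to Day4, -0.17 from Day4 to Day7 and 0.02 from ES to Day2. Of the 37 members raised from ES to Day7, 33 were still raised then, and Chrm3, Grm3, Htr2a and Htr2c were not. With normexp background correction, which draws dim values together, 28 of the 37 were still raised, and those that were not included Chrm3, Chrna5, Gabbr2, Gabra2, Gabrb1, Grm3, Htr2a and Htr2c. Of the 12 lowered members, all 12 stayed past 2-fold after the percentile shift and 4 under normexp, namely Chrna2, Chrna9, Gabrr2 and Grm6. From Day4 to Day7, 33 of the 38 raised members stayed past 2-fold after the percentile shift and 28 under normexp. From ES to Day2, raised members were 61.1% of those changed in the main setting and 84.4% after the percentile shift, and for all genes the same shares were 48.7% and 74.9%. Counting a member only where both arrays had it well above background turned the balance of the members for this step, to 6 raised and 12 lowered, and all genes, which had 1965 raised and 2069 lowered, then had 840 and 2005. With the Day2 array left out of the normalization, which was chosen after seeing the data, 38 members were raised and 13 lowered from ES to Day7, with the 37 and the 12 among them.

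AMPA receptors carry most fast excitation between neurons, and all 4 of their subunit genes were raised from ES to Day7. None of the 4 was well above background in ES cells. Gria2, whose edited subunit makes the channel nearly impermeable to calcium, was not well above background on ES, Day2, Day3 or Day4 and stood at 10.35 on Day7, at least 71.9-fold above ES and at least 78.4-fold above Day4. Gria1 had the same course, with 7.46 on Day7, at least 9.71-fold above ES. Both genes thus had a signal on the Day7 array alone. Gria4 was at 4.49, 6.10 and 5.17 on Day2, Day3 and Day4 and at 11.57 on Day7, at least 88.2-fold above ES, and 84.7-fold above Day4 as a measured change. Gria3 went another way and came up earlier, with 5.21, 6.31 and 6.61 on Day2, Day3 and Day4 and 9.13 on Day7. It was at least 5.41-fold above ES by Day4 and gained a further 5.72-fold to Day7, though under normexp the change from ES to Day4 was 0.97. The other probes of Gria2, Gria3 and Gria4 were raised from ES to Day7 as well, by at least 2.53, 3.39 and 5.07 on the log2 scale.

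NMDA receptors need both glutamate and a co-agonist and admit calcium, and 3 of their 7 genes were raised from ES to Day7 with none lowered. Grin1, the subunit that every NMDA receptor contains, was at 5.15 in ES cells, 3.27, 5.93 and 5.45 on Day2, Day3 and Day4, and 8.30 on Day7, which is 8.85-fold above ES. Its other probe, dim on the ES array, gained at least 0.75 in log2 units, and from Day4 to Day7 it changed by -0.05, where the probe in use rose by 2.84. Grin2b, the glutamate-binding subunit that prevails early in life, was at 5.28 in ES cells, 5.85 on Day2, 5.21 on Day4 and 8.52 on Day7, and not well above background on Day3. Its rise of 9.41-fold from ES came almost wholly after Day4, and the other probe gave at least 4.61 on the log2 scale. Grin2c took a different course, not well above background on the ES array and then at 6.33, 6.60, 6.74 and 7.22 on Day2, Day3, Day4 and Day7, at least 6.43-fold above ES. It had been at least 4.60-fold above ES by Day4 already. For Grin2a, the glutamate-binding subunit that prevails in the mature brain, the probe in use was at 5.71 in ES cells, 4.45 on Day4 and 5.52 on Day7 and not well above background on Day2 and Day3. From ES to Day4 it fell by 1.26 on the log2 scale and regained 1.07 by Day7, and the change from ES to Day7 was -0.19. Neither step passed 2-fold under normexp. Grin2d and Grin3b were not well above background on the ES array and lay between 5.39 and 6.65 on the later arrays, with rises from ES to Day7 of at least 0.86 and at least 0.74 on the log2 scale, and Grin3a was well above background on Day2 alone, at 7.48.

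Kainate receptors modulate transmitter release as well as receiving it, and 4 of their 5 genes were raised from ES to Day7. Grik4 and Grik5 encode the high-affinity subunits, which form channels only together with the products of Grik1, Grik2 or Grik3. Grik5 was at 9.76 in ES cells, 9.96 on Day2, 11.70 at Day3, 11.60 at Day4 and 12.39 by Day7, so that most of its 6.18-fold rise was in place by Day3. Grik4 was at 6.61, 8.67, 7.49, 8.11 and 10.37 on the same arrays, 13.6-fold above ES on Day7. Of their partners, Grik1 was not well above background on ES, Day3 or Day4, was at 5.13 on Day2 and reached 8.73 on Day7, at least 23.4-fold above ES. Grik3 fell and came back: 8.82 in ES cells, 5.69, 6.08 and 6.44 on Day2, Day3 and Day4, and 10.72 on Day7. It was 5.21-fold below ES on Day4 and 3.75-fold above ES on Day7, though its other probe was not well above background on any array. With the mean over all probes the change of Grik3 from ES to Day7 was 0.88, short of 2-fold. Grik2 was at 5.31 in ES cells and between 6.24 and 6.59 on the later arrays, with a change of 0.93 from ES to Day7. From ES to Day4 it rose by 1.08, and its other probe was not well above background on either of these arrays. Under normexp this change of Grik2 was 0.51, and with the mean over all probes it was -0.54.

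Delta receptors resemble glutamate channels in sequence but act mainly as adhesion proteins of the synapse that bind cerebellins. Grid1 was well above background on Day7 alone, at 7.20 and at least 8.12-fold above ES. Grid2ip, which binds receptors and is not one itself, lay between 7.15 and 8.12 on all arrays and did not change by 2-fold from ES to Day7. Grid1 thus had its signal on Day7, while Grid2ip was present throughout.

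Metabotropic glutamate receptors are G protein-coupled, and from ES to Day7 Grm3, Grm7 and Grm8 were raised and Grm6 was lowered. Among those that lower cyclic AMP, Grm7 was well above background on Day7 alone, at 7.09 and at least 7.54-fold above ES. Grm8 was at 6.65 in ES cells, 6.90 on Day2, 6.37 at Day3, 6.24 at Day4 and 8.43 by Day7, a rise of 3.42-fold. Grm3 was at 4.0 on Day2 and 5.34 on Day7 and not well above background elsewhere, at least 2.24-fold above ES. Grm6, known from the bipolar cells of the retina, went from 9.20 in ES cells to 6.37 on Day2, was not well above background on Day3, and was at 4.59 on Day4 and 6.95 on Day7. It was 24.5-fold below ES on Day4 and still 4.75-fold below on Day7, after a gain of 5.15-fold between them. Others did not pass 2-fold from ES to Day7: Grm2 changed by -0.40, Grm4 by -0.29 and the probe in use for Grm5 by -0.93. For Grm5 the mean over its probes gave 1.26, and which probe is taken decides the direction.

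GABA-A receptors are chloride channels that open when GABA binds. Some of their genes were well above background at both ends of the time course. In ES cells 9 of 19 (47.4%) were well above background, on Day4 8 (42.1%) and on Day7 12 (63.2%). Among all named genes the shares on these arrays were 73.1%, 77.6% and 76.2%, so the family had the smaller share on each. From ES to Day4, 3 were raised and 6 lowered, and from Day4 to Day7 9 were raised and 3 lowered. From ES to Day7, 7 were raised and 2 lowered. In some of the genes a fall to Day4 was followed by a rise. Gabrb2, a beta subunit, was at 7.22, 5.39, 5.60, 6.10 and 10.61 from ES to Day7, 2.18-fold below ES on Day4 and 22.7-fold above Day4 on Day7. It ended 10.4-fold above its level in ES cells. By the probes in use, the alpha subunits of the same course had a clear signal in ES cells, were not well above background by Day4 and were so again on Day7. Gabra2 was at 5.53 in ES cells, not well above background on Day2, Day3 and Day4, and at 7.07 on Day7. Gabra3 was at 7.43 in ES cells, 5.50 on Day2, 5.85 on Day3, not well above background on Day4, and at 8.25 on Day7. Its other probe gave a different course, not well above background on the ES array and at 4.88 on Day4 and 4.82 on Day7. Gabra5 was at 5.86 in ES cells, 3.52 on Day2, not well above background on Day3 and Day4, and at 6.34 on Day7. On Day4 the probes in use of these 3 genes lay at least 2.79-fold, at least 10.4-fold and at least 3.51-fold below ES. From ES to Day7 Gabra2 was 2.89-fold above, whereas Gabra3 and Gabra5, with log2 changes of 0.81 and 0.48, did not pass 2-fold. Under normexp the fall from ES to Day4 was -0.55 for Gabra2, -0.76 for Gabra5 and -0.61 for Gabrb2, short of 2-fold, while the probe in use for Gabra3 stayed past it.

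Other GABA-A genes came up without a signal in ES cells. Gabrb1 was at 3.20 on Day2 and 6.42 on Day7 and otherwise not well above background, at least 4.72-fold above ES. Gabrg1 had 2 high arrays, with 5.14 on Day2, 7.63 on Day3, no signal well above background on ES or Day4, and 7.77 on Day7. Its rise from ES to Day7 was at least 12.0-fold by this probe and at least 0.95 on the log2 scale by the other, which was well above background on the same arrays. Gabrd, a subunit of receptors outside synapses, and Gabrp were highest in between. Gabrd was at 5.64 on Day2, 5.93 on Day3 and 6.83 on Day4 and not well above background on ES or Day7. Gabrp was at 3.24, 6.75 and 6.01 on these arrays and likewise not well above background at either end. From Day4 to Day7 they fell at least 4.51-fold and at least 2.56-fold, and under normexp these falls were -0.96 and -0.55, short of 2-fold.

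Some GABA-A genes were highest in ES cells or before Day7. Gabrr2, a rho subunit known from the retina, was at 12.34 in ES cells, 11.55 on Day2, 10.88 at Day3, 10.84 at Day4 and 10.34 by Day7. It ended 4.01-fold below ES, with hardly any change from Day3 to Day4 (-0.04). Gabrr1, its neighbour in the genome, changed by -0.24 from ES to Day7. Gabra4 was at 5.66 in ES cells, 4.72 on Day2, 6.55 on Day3 and 5.05 on Day4 and was not well above background on Day7, at least 2.01-fold below ES. Gabrg3 was at 5.55 in ES cells, 6.61, 6.05 and 6.94 on Day2, Day3 and Day4, and 5.64 on Day7, which is 2.46-fold below Day4, a change of -0.64 under normexp. Gabrr3 was well above background on Day2 and Day3 only by the probe in use, with 4.79 on Day4 by the other, and Gabre on Day2 only.

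GABA-B receptors are G protein-coupled and work as a pair, in which the product of Gabbr1 binds GABA and that of Gabbr2 couples to the G protein. Both were raised. Gabbr1 was well above background on all arrays, at 9.87 in ES cells, 9.62, 10.65 and 10.45 on Day2, Day3 and Day4, and 13.97 on Day7. It rose 17.1-fold from ES to Day7, and its other probes rose by 2.12 and 2.04 on the log2 scale. Gabbr2 was at 2.87 on Day2, 4.67 on Day4 and 6.55 on Day7 and not well above background on ES and Day3, at least 5.07-fold above ES. Gabbr1 thus had a value at all stages and Gabbr2 at 3, but the arrays differ in the signal that counts as well above background. Gabbr2 was so marked on Day2 at 2.87 and not on Day3, where its signal was 4.82. The dimmest signal so marked was 2.6 on Day2 and 5.22 on Day3.

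Glycine receptors are the other chloride channels of spinal inhibition, and 3 of their 5 genes were raised from ES to Day7. Glra2, the alpha subunit of the embryonic receptor, was at 5.19 on Day2 and 9.49 on Day7 and not well above background on ES, Day3 and Day4. It was at least 39.7-fold above ES and at least 43.3-fold above Day4. Glra1, the alpha subunit of the adult spinal cord, was already at 6.09 on Day4 and at 7.44 on Day7, after 3.75 on Day2 and no signal well above background on ES and Day3. It lay at least 3.75-fold above ES on Day4 and at least 9.60-fold above on Day7, and the other probe gave at least 1.87 on the log2 scale by Day7. Glrb, the beta subunit that ties the receptor to its anchor gephyrin, was well above background on every array, at 5.16 in ES cells, 5.14 on Day2, 6.92 at Day3, 6.62 at Day4 and 8.25 by Day7. It was 2.76-fold above ES on Day4 and 8.52-fold on Day7. Under normexp the changes of Glra1 and Glrb from ES to Day4 were 0.63 and 0.83, short of 2-fold. Glra3 and Glra4 were well above background on Day2 alone.

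**Figure D2:**
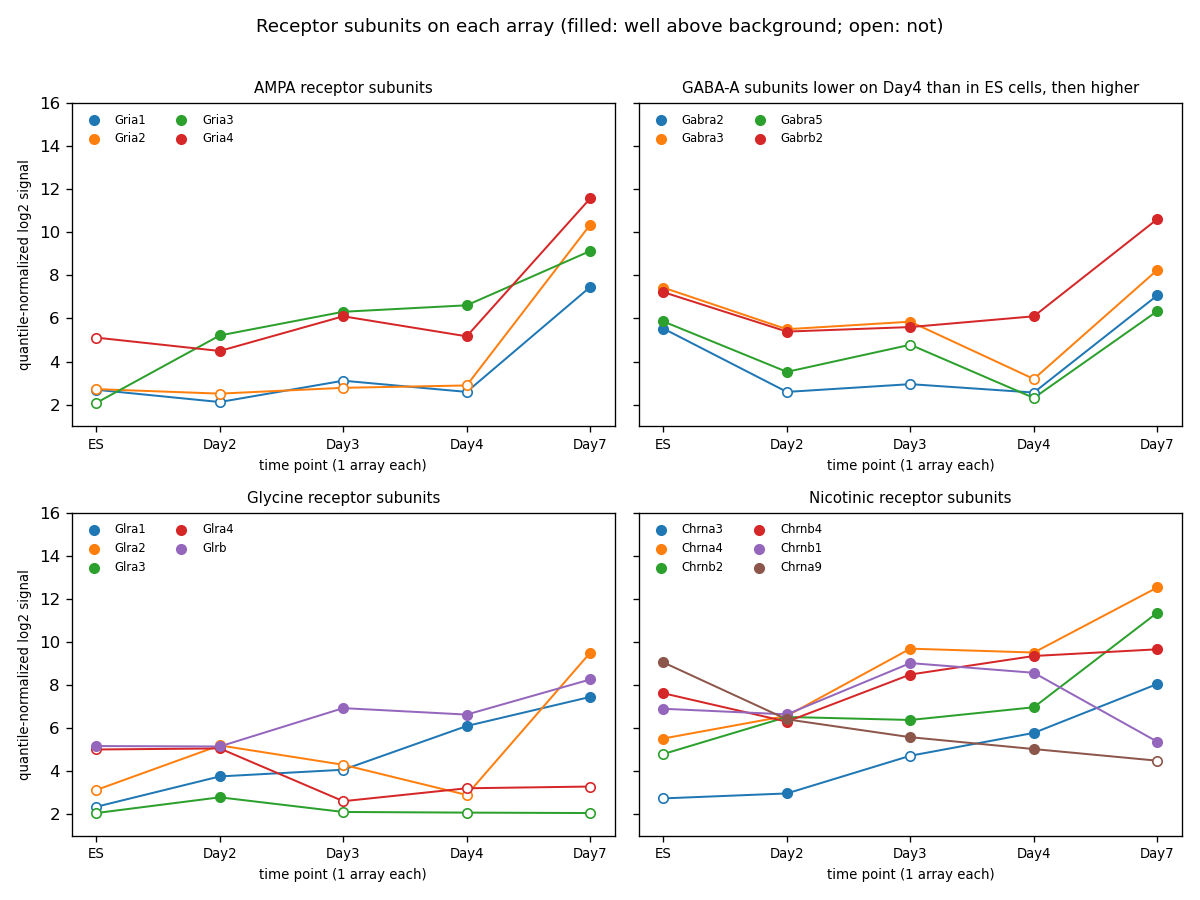
Quantile-normalized log2 signal (vertical axis) on the 5 arrays (horizontal axis, 1 array each) for subunits of 4 receptor families, 1 line per gene. Filled points were well above background and open points were not, and because probes differ in brightness a line is read along its own course and not against the other lines. AMPA and glycine subunits that were raised from ES to Day7 have their highest point on Day7. The 4 GABA-A subunits were picked from 19 because they dip before they rise. Among the nicotinic subunits Chrna4 climbs from 5.51 to 12.52 while Chrna9 declines from 9.04.

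Nicotinic receptors are cation channels opened by acetylcholine. From ES to Day7, 5 of 16 genes (31.2%) were raised and 5 (31.2%) lowered, where all genes gave 19.7% and 19.4%. An even split was thus found among all genes as well. Chrna4 and Chrnb2 together form the most common nicotinic receptor of the brain. Chrna4 was at 5.51 in ES cells, 6.56, 9.68 and 9.50 on Day2, Day3 and Day4, and 12.52 on Day7, so it was 15.9-fold above ES on Day4 and 129-fold on Day7, both as measured changes. Chrnb2 was not well above background on the ES array and then at 6.51, 6.37, 6.96 and 11.35, at least 94.2-fold above ES on Day7. After Day4 Chrna4 gained 8.10-fold and Chrnb2 21.0-fold. Chrnb2 had been at least 4.48-fold above ES by Day4, a change of 0.81 under normexp. The subunits of the ganglionic receptor also rose. Chrna3 was at 2.96 on Day2, 5.77 on Day4 and 8.04 on Day7 and not well above background on ES and Day3, at least 14.5-fold above ES. Chrnb4 was at 7.61 in ES cells, 6.29 on Day2, 8.48 at Day3, 9.34 at Day4 and 9.65 by Day7, 4.10-fold above ES. Chrna5, an accessory subunit, was not well above background on the ES array and lay between 6.61 and 7.05 on all later arrays, at least 4.08-fold above ES on Day7. Most of the rise of Chrnb4 and Chrna5 was in place by Day4, with changes of only 0.31 and 0.20 from Day4 to Day7.

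The 5 lowered nicotinic genes include Chrnb1 and Chrnd of muscle, given below. Chrna9, known from the hair cells of the inner ear, declined at every step, from 9.04 in ES cells to 6.40 on Day2, 5.57 on Day3 and 5.02 on Day4, and was not well above background on Day7, at least 20.9-fold below ES. Chrna10, its partner there, was well above background on Day2 alone. Chrna2 was at 10.51, 9.77, 9.36, 9.38 and 8.93 from ES to Day7, 3.0-fold below. Chrna7, which can form a receptor of its own, was at 6.94, 5.99, 5.81, 6.19 and 5.32, 3.07-fold below. Both had a signal on all arrays and were lowest on Day7. Chrna6 was at 5.74 in ES cells and 5.26 on Day7 and did not pass 2-fold.

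The genes of the muscle receptor, on which motor neurons act, did not move as a group. Chrnb1, the beta subunit, was at 6.89 in ES cells, 6.63, 9.01 and 8.56 on Day2, Day3 and Day4, and 5.36 on Day7, so that it was 3.18-fold above ES on Day4 and then fell 9.14-fold. Chrnd was at 5.97 in ES cells and 5.85 on Day2 and not well above background later, at least 2.49-fold below ES on Day7. Chrng, the subunit of fetal muscle, was at 5.54, 3.72, 5.74 and 5.48 on ES, Day2, Day3 and Day4, and not well above background on Day7. Chrne, its adult counterpart, was not well above background on any array, and Chrna1, which every muscle receptor contains, on Day2 alone and without a fold. Of 6 genes of skeletal muscle, 3 were well above background on each array but Day2, where 5 were. The log2 of their summed signal was 10.45 in ES cells, 10.68, 12.44 and 13.05 on Day2, Day3 and Day4, and 9.40 on Day7. This sum follows mainly its brightest probes. Acta1, the actin of skeletal muscle, was at 11.63 on Day3 and 12.42 on Day4 against 7.65 in ES cells, and Actc1, of heart and early muscle, was at 11.12 and 11.51. Myh3, the myosin of embryonic muscle, went the other way, from 9.62 in ES cells to 6.09 on Day4. The regulators that define muscle, Myod1 and Myog, were well above background on Day2 alone, and Ckm on no array. The part of muscle-like cells in the course of Chrnb1 was not tested.

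Muscarinic receptors are the G protein-coupled receptors of acetylcholine, and 2 of 5 were raised from ES to Day7 with none lowered. Chrm2, which inhibits adenylyl cyclase and is known from motor neurons and the heart, was well above background on Day7 alone, at 6.76 and at least 6.0-fold above ES. Chrm3, which acts through phospholipase C, was at 2.84 on Day2, 4.57 on Day4 and 5.27 on Day7, at least 2.13-fold above ES. Chrm4 was at 6.45 in ES cells, 7.23 on Day2, 6.37 at Day3, 7.35 at Day4 and 6.33 by Day7, a fall of 2.03-fold from Day4 to Day7 that leaves it near its level in ES cells and that under normexp was -0.67, short of 2-fold. Chrm1 was well above background on Day2 and Day3 only, and Chrm5 on Day2 alone, the array that stood apart, at 8.88 and at least 26.1-fold above ES.

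Serotonin receptors receive input from the raphe nuclei of the brainstem, and few of their genes had a signal well above background on the arrays other than Day2. Of 14 genes, 4 were well above background in ES cells, 13 on Day2 (92.9%, against 91.7% of all genes on that array), and 2, 3 and 4 on Day3, Day4 and Day7. None was so both in ES cells and on Day7. Those of ES cells were Htr1d, Htr3a, Htr5b and Htr7. Htr3a, the serotonin-gated channel, was at 6.38 in ES cells, 6.45 on Day2, 7.83 on Day3 and 5.97 on Day4 and not well above background on Day7, at least 3.31-fold below ES. Htr1d was at 5.94, 7.04 and 4.88 on ES, Day2 and Day4, and Htr5b at 5.83, 4.91, 5.69 and 4.43 on the arrays from ES to Day4. Both were not well above background on Day7, at least 2.44-fold below ES for Htr1d and at least 2.26-fold for Htr5b. The 4 genes of Day7 were Htr1a, Htr2a, Htr2b and Htr2c. Htr2a and Htr2c, which act through phospholipase C and raise the excitability of motor neurons, were at 5.22 and 5.21 there, at least 2.05-fold and 2.04-fold above ES, close to the threshold. Htr1a was at 8.13 on Day2 and 5.06 on Day7 and otherwise not well above background, and Htr2b at 4.59 and 5.06 on the same arrays. From Day4 to Day7 these bounds were between 2.00-fold and 2.24-fold for the 4 genes, and none of them passed 2-fold after the percentile shift. On Day2, the array that stood apart, 6 genes of the family were raised over ES, 5 of them as bounds. Of 3 marker genes of serotonin neurons, none passed 2-fold from ES to Day7, and Tph2, which makes serotonin in neurons, was not well above background on Day7.

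Genes for proteins that assemble, anchor or supply ions to these receptors were followed alongside. Of 42 such genes, 24 (57.1%) were raised at least 2-fold from ES to Day7 and 0 lowered, where all genes gave 19.7% and 19.4%, and from Day4 to Day7 23 (54.8%) were raised and 3 (7.14%) lowered, where all genes gave 14.6% and 14.7%. On the AMPA side Cacng2, the auxiliary subunit that brings AMPA receptors to synapses, was at 7.28 on Day2, 5.08 on Day4 and 10.92 on Day7 and not well above background on ES and Day3, at least 107-fold above ES. Dlg4, the scaffold PSD-95 of excitatory synapses, was at 5.64 in ES cells, 6.80, 6.43 and 6.28 on Day2, Day3 and Day4, and 8.64 on Day7, 7.99-fold above ES. Neto1 and Neto2, auxiliary subunits of kainate receptors, rose at least 8.99-fold and 6.72-fold. On the inhibitory side Gphn, which encodes gephyrin, was between 9.81 and 10.15 up to Day4 and at 12.27 on Day7, a rise of 5.35-fold. Nlgn1, an adhesion protein of excitatory synapses, rose at least 31.2-fold, and Nlgn2, that of inhibitory ones, 8.18-fold. Other scaffolds of excitatory synapses did not pass 2-fold from ES to Day7, among them Homer1, Homer2, Homer3, Shank1 and Shank3, and neither did Lhfpl4 of inhibitory synapses, with -0.21. Kctd8 and Kctd12, auxiliary subunits of GABA-B receptors, rose at least 20.8-fold and 12.1-fold.

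The chloride transporters set whether GABA and glycine excite or inhibit a cell. Slc12a5, which exports chloride and is known for making these transmitters inhibitory as neurons mature, was at 8.66 in ES cells, 9.71, 9.51 and 9.04 on Day2, Day3 and Day4, and 13.02 on Day7, 20.6-fold above ES. Slc12a2, which imports chloride, was at 12.17, 12.25, 12.06, 12.11 and 11.52 and changed by -0.65. The exporter was raised while the importer stayed within 2-fold. At the neuromuscular junction, Agrn, which motor neurons release to gather receptors on muscle, rose from 14.62 to 15.63, just past 2-fold at 2.02-fold, Rapsn, which clusters them, changed by -0.05, and Musk, the muscle kinase that answers agrin, was well above background on Day2 alone.

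Several receptor genes lie side by side in the genome, and members of a group did not always move together. By the RefSeq gene order of GRCm38.p6, Gabra4 and Gabrb1 are neighbours that went opposite ways, with a fall of at least 2.01-fold and a rise of at least 4.72-fold, and neither passed 2-fold under normexp, with -0.37 and 0.74. Chrna5, Chrna3 and Chrnb4, the ganglionic group, were all raised. Gria2 and Glrb, of different families, are neighbours as well, and both were raised.

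The promoters were searched for letters of the site bound by the repressor REST, which is known for keeping neuronal genes silent outside neurons. The letters GCACCNNGGACAG, in which N is any base, were searched on both strands from 250 bases before to 50 bases after each annotated start in the RefSeq promoters of GRCm38.p6, a choice made after the matches had been seen. They were found for 28 of 27025 genes (0.104%) and for 2 of the 64 members with a promoter there (3.12%), namely Gria2 and Htr5a. With an A before them, AGCACCNNGGACAG, which is the same site made longer, they were found for 16 genes (0.0592%) and among the members for Gria2 alone. A match is a description of the sequence and says nothing of binding. The stretches are shown because Gria2 had a signal on Day7 alone whereas Htr5a was well above background on Day2 alone. Capitals mark the match, which, read along the strand of the gene, begins 170 and 214 bases before the start of the gene. For Gria2, printed on the other strand, that base is the last capital.
Gria2, chr3:80802984-80803013, plus strand, the gene being on the minus strand: tcgattttaGCACCGCGGACAGcgctttgg
Htr5a, chr5:27841725-27841754, plus strand, as the gene: aggcagcgGCACCGTGGACAGcgccaagca

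For 23 of the 88 members the array had more than 1 probe. In 13 of them all probes gave the same result from ES to Day7, in 10 at least 1 probe differed in whether its change or bound passed 2-fold or in having a value, and in 0 did probes pass 2-fold in opposite directions. Among the 10 were Gabbr2, Gabrg1, Grik3, Grin1 and Htr2c, whose brighter probe was raised. A gene with probes for several transcript forms can differ between them, and which forms the probes measure was not analysed here.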

How the data were processed

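RNA of 5 samples was hybridised to Agilent 8x60K mouse expression arrays with a single dye. Scanner files deposited by the authors, made with Agilent Feature Extraction 10.5.1 according to the submitters' processing notes, hold the intensity of each spot after background subtraction and detrending and before any normalization across arrays. A deposited table of log2 values for 100.0% of the probes of each array equalled the log2 processed signal minus its 75th percentile within 0.01. The medians of that table were -3.55, -2.62, -3.72, -3.54 and -3.67 from ES to Day7.

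Control spots and spots flagged as outliers were left out (between 105 and 169 outlier spots an array), no spot was saturated, and mean log2 intensities of probes were quantile-normalized (limma 3.58.1 in R 4.3.3), after the analysis named in a legend of the study. Later steps used Python 3.11.15, numpy 2.4.6, pandas 2.3.3 and matplotlib 3.10.9. Of these steps only the calculation of changes was tested on simulated data. Both simulated arrays had the same bound for dim probes, so the differing bounds of the real arrays were not covered. Of 55681 mouse probes, 26300 were named through RefSeq accessions (GRCm38.p6, names, gene order and promoters only), giving 19897 genes. The members had 116 probes. Full values are given by the rule that a member was well above background on the ES or Day7 array and changed at least 2-fold from ES or Day4 to Day7. Members, marker lists and companion genes were chosen with earlier results of these data known. Slc6a5, a glycine transporter on the list of GABA and glycine neuron genes, is not analysed here. The values of 5 members and of some other listed genes are not reported here, but counts include them. The alternatives were another scaling, normexp with an offset of 50, the deposited log2 values, other treatments of dim probes, the mean over probes, a 4-fold threshold and, chosen after seeing the data, normalization without the Day2 array.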

Additional observations from a re-analysis of the deposited data

Results flagged for a closer look

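Probes that the comparisons did not use, because a brighter probe stood for the gene, rose at least 2-fold from ES to Day7 in 3 members whose probe in use did not. On the ES array each unused probe was not well above background, and on Day7 it was. For Grin2a, the NMDA receptor subunit, the rise was at least 3.48 in log2 units, where the probe in use changed by -0.19. For Grm5, a metabotropic glutamate receptor, it rose by at least 3.51, where the probe in use changed by -0.93 and a further probe was not well above background on either array. For Grik2, a kainate receptor subunit, it rose by at least 1.89, where the probe in use rose by 0.93. The unused probes were at 7.65, 7.69 and 6.75 on Day7. Whether the probes differ in transcript form or in specificity was not tested.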

How the results depend on the processing

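No paired analysis was possible because there was 1 array for each stage, so there were no replicates to leave out either. A slide block could not be fitted with Day7 alone on its slide. What dim genes can show is limited by signal over background, and 21 members had no value from ES to Day7. The cause of a change between settings was not tested, unless the way an alternative was built shows it.

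In the main setting the members raised and lowered numbered 22 and 14 from ES to Day2, 16 and 15 from ES to Day4, 38 and 7 from Day4 to Day7, and 37 and 12 from ES to Day7. After the 75th percentile shift, and with the deposited log2 values, the step from ES to Day2 had 38 raised and 7 lowered. All genes gave 19.3% and 6.45% after the shift. Of the 14 lowered members, 8 did not stay past 2-fold. Grin1, which fell by 1.88 in that step, then changed by 0.03 under both. Under normexp the counts were 5 and 4 from ES to Day2, where all genes gave 4.81% and 4.24%. From ES to Day4 they were 6 and 7, against 8.99% and 7.76%. From Day4 to Day7 1 was lowered and from ES to Day7 4 were, against 10.7% and 15.2% of all genes. The median change from ES to Day7 was 0.56. Raised members were 87.5% of those changed from ES to Day7 under normexp and 90.6% at 4-fold, against 75.5%, and 96.6% under normexp from Day4 to Day7, against 84.4%. For all genes the same shares were 50.8% and 60.6%, against 50.4%, and 51.7%, against 49.9%.

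With the other detection flag, which asks for less signal, 63 members in ES cells and 64 on Day3 were detected. From ES to Day7 19 of the 88 members were then lowered, where 23.0% of all genes were. With no filter on dim probes 19 were lowered from ES to Day7, again against 23.0% of all genes, and the median was 0.67. Where both arrays had to be well above background, which removes each member dim on one side, the step from ES to Day2 had 6 raised and 12 lowered (840 and 2005 of all genes), 8 were raised from ES to Day4, 18 raised and 4 lowered from Day4 to Day7, and 13 and 6 from ES to Day7, with a median of 0.48. At 4-fold the counts were 8 and 6 from ES to Day2, where all genes gave 4.44% and 3.35%. From ES to Day4 they were 5 and 4, against 4.13% and 3.27%. At this threshold 2 were lowered from Day4 to Day7 and 3 from ES to Day7, against 3.52% and 6.66%. With the mean over all probes Grik2 turned from 1.22 to -0.48 from ES to Day2 and from 1.08 to -0.54 from ES to Day4, its other probe being dim on ES, Day2 and Day4. Apart from Grin1 and Grik2 no change past 2-fold turned its sign under an alternative. Changes short of 2-fold that passed it with the other sign were, with the mean over all probes, Grm5 from -0.93 to 1.26 and Grin2a from -0.19 to 2.27 between ES and Day7, and Grik2 from -0.15 to 1.95 and Grm5 from -0.05 to 1.51 between Day4 and Day7. After the percentile shift and with the deposited values, Glrb went from -0.02 to 1.30 between ES and Day2. Without the Day2 array, 18 were raised and 15 lowered from ES to Day4, where all genes gave 14.2% and 12.0%. From Day4 to Day7 the counts were 38 and 7, against 15.1% and 15.3%. From ES to Day7 they were 38 and 13, against 20.2% and 20.0%, with a median of 1.26.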
